A study of Homo sapiens with 34 samples.

Results

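The genes examined were 3 Notch receptors, NOTCH1, NOTCH2 and NOTCH3, the ligands JAG1 and JAG2, and the transcriptional targets HES1, HEY1 and HEY2. They were found by their symbols in both deposited tables, as 8 of 37951 listed genes, and all 8 passed the filter on low counts. In Notch signaling, a ligand on one cell binds a receptor on its neighbor, the receptor is cut by ADAM proteases and then by gamma-secretase, and its intracellular part enters the nucleus and activates genes together with the DNA-binding protein RBPJ. HES and HEY genes encode basic helix-loop-helix repressors and are the best known of these targets, although other pathways also regulate them. In the embryo Notch signaling is known for the segmentation of paraxial mesoderm into somites and for roles in heart and vessel formation.

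The cells were ESI017, an established human embryonic stem cell line of wild-type genotype, and RNA was sequenced from 34 libraries in 17 conditions with 2 biological replicates each. Control cells stayed in pluripotency medium, and their labels give 48 h. The other cells received a primitive streak (PS) treatment on day 1, after which they were either collected at 24 h or changed to a second medium and collected at 48 h. The day 1 treatments were given in Essential 6 medium. Comparisons with Control thus combine the added factors, the base medium and, at 24 h, the time of collection, which cannot be told apart. Activin at 100 ng/ml with the Wnt agonist CHIR99021 at 2 µM gave DE(a) cells, the progenitors of definitive endoderm (DE). For anterior PS (APS) the activin was 30 ng/ml and the CHIR99021 4 µM, and bFGF was added at 20 ng/ml. Mid PS (MPS) had the activin and bFGF of APS, further BMP4 at 40 ng/ml, and CHIR99021 at 6 µM, and posterior PS (PPS) had the same factors as MPS but no activin. The second medium was one of 3. In DE(b) medium, activin at 100 ng/ml was combined with the BMP inhibitor LDN-193189 at 250 nM. Medium for paraxial mesoderm (PM) contained the same LDN-193189, bFGF at 20 ng/ml and the activin/Nodal inhibitor A-8301 at 1 µM. The sources differ on whether it also held CHIR99021. The protocols in the labels and methods do not list it, whereas a supplementary description of PM treatment does. The authors also describe Wnt activation, together with BMP inhibition, as inducing PM. By that account PM medium held a Wnt agonist, although its presence in the sequenced cultures is not stated. This bears on every comparison with PM medium. Medium for lateral mesoderm (LM) contained the same A-8301, BMP4 at 30 ng/ml and the Wnt inhibitor IWP2 at 4 µM. Every day 1 treatment was combined with every medium. The standard protocols are DE(a)-DE(b) for endoderm, APS-PM for paraxial and MPS-LM for lateral mesoderm. All conditions are cultures of a single line, and each library pools the cells of a culture, so that fewer cells of a type and less RNA per cell cannot be told apart.

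The libraries held 15522780 to 23439799 estimated counts (median 19341117). Levels are given as CPM, the share of a library's estimated counts scaled to a total of 1e+06. Markers of the labelled fates were present to different degrees. The summed level of the definitive endoderm list was 130.5 to 803 CPM in the 8 DE(b) libraries. Within DE(b), the endoderm factor FOXA2 was low after PPS, at 2.17 and 11.0 CPM against 86.0 and 125 CPM after DE(a), and had 17.1 and 37.8 CPM after MPS. The summed level of the paraxial list was 196 to 280 CPM in the 8 PM libraries, although its gene MESP2 was under 1 CPM there, and that of the lateral list 451 to 2263 CPM in the 8 LM libraries. In PM the endoderm list summed to 234 to 335 CPM, above the lowest DE(b) library, and of this CXCR4 made up most (156 to 335 CPM).

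The promoters were searched because HES1 and HEY2 are known RBPJ targets. RefSeq windows from 250 bases before to 50 bases after the transcription start (GRCh38.p14) were found for 7 of the 8 genes, all except HEY1. The RBPJ core TGGGAA, read on both strands, was present in 2 of these 7 windows, those of HES1 and HEY2, against 24.0% of 35116 promoters. Each of these windows held 2 matches, which was true of 3.796% of promoters. The stretches below show the pair in HES1 and the upstream match in HEY2, with the core, or its other strand TTCCCA, in capitals.
HES1, chr3:194136048-194136147, plus strand, 100 bases directly upstream of the start: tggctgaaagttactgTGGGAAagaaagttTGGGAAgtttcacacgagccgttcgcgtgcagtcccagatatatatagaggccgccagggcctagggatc
HEY2, chr6:125749382-125749441, plus strand, from 250 to 191 bases upstream of the start, within an intron of a longer annotated transcript: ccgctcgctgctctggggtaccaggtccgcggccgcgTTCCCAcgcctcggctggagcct
The HES1 matches began 84 and 70 bases upstream of the start, and those of HEY2 213 and 3 bases upstream. The N box CACNAG, a sequence that HES repressors bind, had 4 matches in the HES1 window and was present in 4 of the 7 windows, against 38.0% of promoters. CACGTG was present in 0 of the 7, against 7.26% of promoters, and CACGCG in 3 of the 7, against 11.4%. These matches describe the sequence and were not tested for binding.

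Per kilobase of annotated exon, NOTCH3 was the most abundant of the 8 genes in Control cells, at a level of 29.3 ± 5.55 CPM per kb (SD, n = 2). NOTCH1 had 11.2 ± 1.28 CPM per kb there, NOTCH2 9.35 ± 0.498 and HEY2 8.60 ± 0.655, while JAG1 had 5.29 ± 1.06 and HES1 3.64 ± 0.185. JAG2 and HEY1 were lowest, at 1.24 ± 0.124 and 0.335 ± 0.0624 CPM per kb. Averaged over the 17 conditions, the order was NOTCH3 (19.2 CPM per kb), NOTCH1 (15.99), NOTCH2 (9.55), HES1 (7.83), JAG1 (6.83), HEY2 (5.74), HEY1 (2.19) and JAG2 (1.31). The place of HEY1 above JAG2 rested on PPS-LM, without which its mean was 0.716 CPM per kb. Between the lowest and the highest condition mean, the level differed by 1.52-fold for NOTCH2, 9.89-fold for NOTCH1 and 28.1-fold for HES1. For HEY1 the ratio was 328, from a PPS-PM mean near the counting floor.

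NOTCH1 (chromosome 9, 136494433 to 136546048 of GRCh38, minus strand) followed the day 2 medium. In PM medium its level in replicates 1 and 2 was 287 and 483 CPM for DE(a) cells, 391.8 and 437 CPM for APS, 479 and 456 CPM for MPS, and 489 and 611 CPM for PPS. Control cells had 152 and 130 CPM. In LM medium DE(a) cells had 94.6 and 92.2 CPM, APS cells 76.98 and 80.95 CPM, MPS cells 65.5 and 63.8 CPM, and PPS cells 49.97 and 61.3 CPM. All 8 PM libraries lay above all other libraries, and all 8 LM libraries lay below all 8 DE(b) libraries, which ranged from 104 to 178 CPM. The condition means of PM medium were ordered PPS, MPS, APS and DE(a) from high to low, and those of LM medium in the opposite order. Neither order passed the test among day 1 treatments (edgeR adjusted p = 0.44 in PM and 0.16 in LM), nor did the interaction of day 1 and day 2 treatment (adjusted p = 0.093).

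NOTCH2 (chromosome 1, 119911553 to 120100779, minus strand) varied least of the 8 genes. Its condition means lay between 134 CPM in PPS-24h and 204 CPM in DE(a)-PM, and 13 of the 16 pairs of neighbors in the order of conditions overlapped in their replicates. The 8 PM libraries, from 167 to 223 CPM, lay above the 8 DE(b) libraries, from 130.5 to 158 CPM, and overlapped with the LM libraries, from 115 to 207 CPM. NOTCH2 shares sequence with NOTCH2NLA, listed at 2.61 to 10.2 CPM, so the division of reads between them is uncertain.

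NOTCH3 (chromosome 19, 15159038 to 15200995, minus strand) was high in pluripotent cells and again in DE(b) medium. Control libraries had 312 and 239 CPM. At 24 h the values were 121 and 109 CPM in DE(a), 78.0 and 97.4 CPM in APS, and 73.3 and 118 CPM in MPS, all below Control. PPS cells had 153 and 334 CPM, and these replicates differed more than the DE(a), APS and MPS means did from each other. In DE(b) medium the level was 240.1 and 357 CPM after DE(a), 256 and 341 CPM after APS, and 282 and 364 CPM after MPS, whereas after PPS it was 176 and 165 CPM. In the PM and LM libraries it ranged from 107 to 172 CPM and from 115 to 206 CPM.

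**Figure D1:**
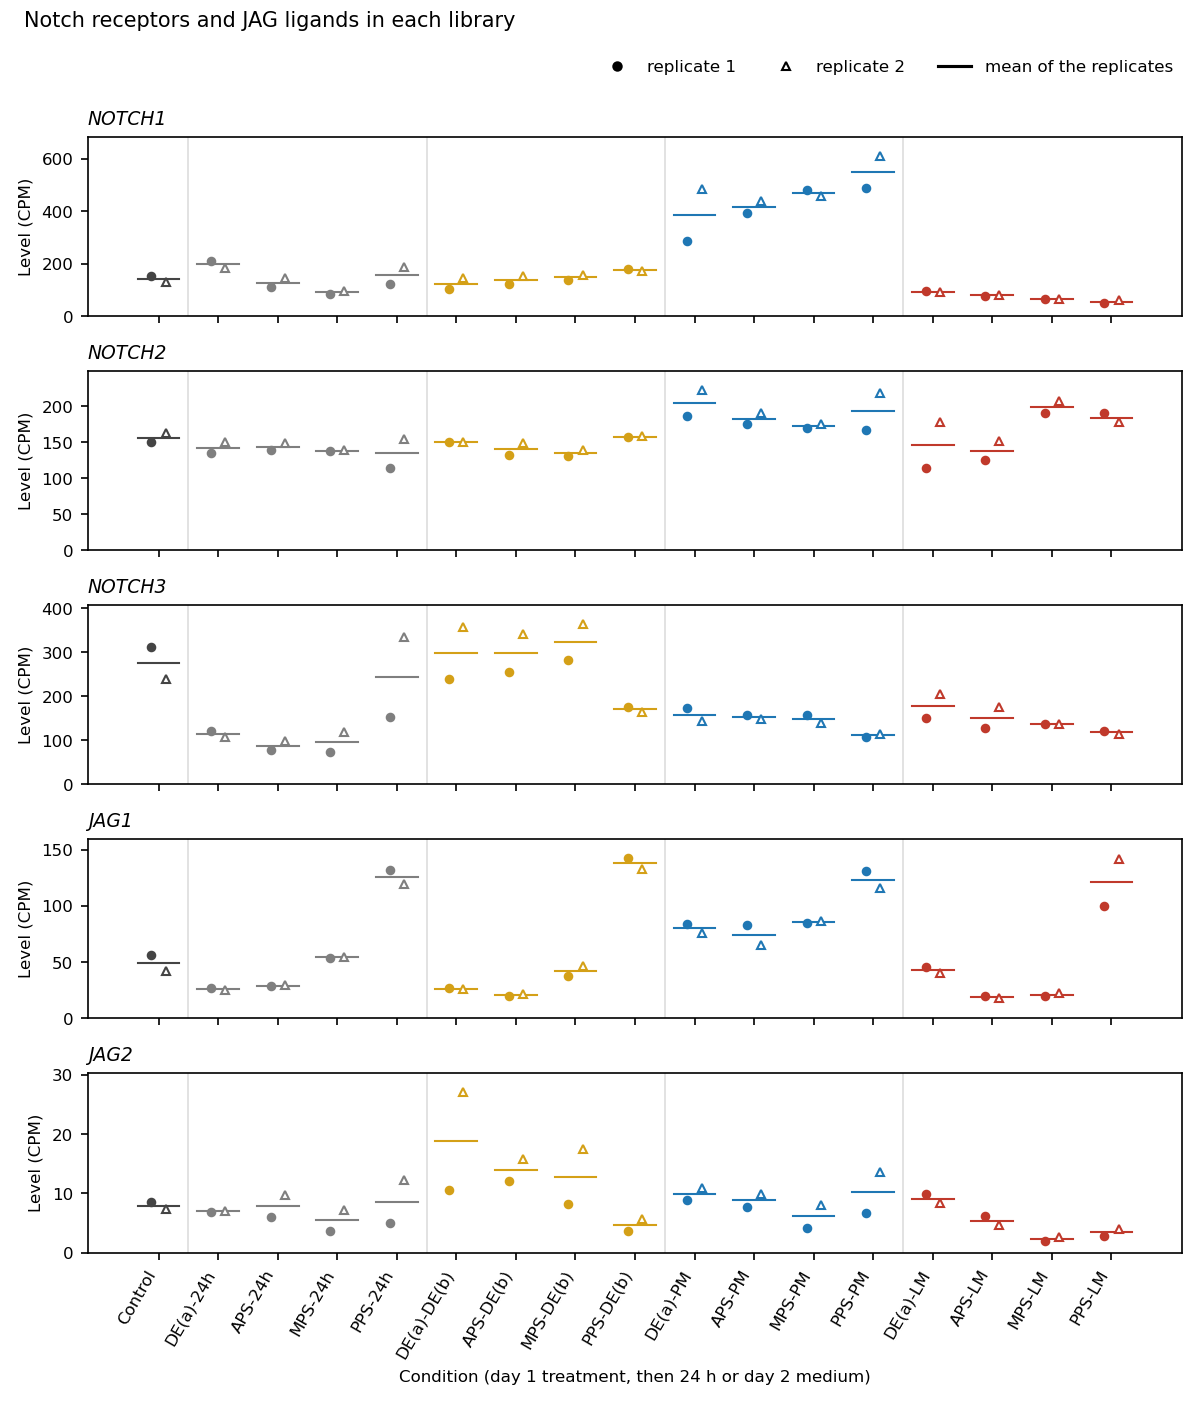
Level in CPM (vertical axis, from 0) of the receptors and ligands in each of the 17 conditions (horizontal axis); filled circles are replicate 1, open triangles replicate 2 and lines their mean, colored by day 2 medium. NOTCH1 stands highest in PM (287 to 611 CPM) and JAG1 in every PPS condition (100.3 to 142 CPM). The NOTCH3 mean is highest in Control and in DE(b) except after PPS.

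JAG1 (chromosome 20, 10637684 to 10673999, minus strand), a transmembrane ligand of the Serrate type, carried the clearest mark of the day 1 treatment. After PPS its level was 132 and 119 CPM at 24 h, 142 and 133 CPM in DE(b), 131 and 116 CPM in PM, and 100.3 and 142 CPM in LM. The values after MPS were 53.8 and 54.9 CPM at 24 h, 37.9 and 47.0 CPM in DE(b), 85.0 and 86.8 CPM in PM, and 19.7 and 22.4 CPM in LM. After DE(a) and APS it was 25.5 to 29.9 CPM at 24 h and 20.2 to 26.6 CPM in DE(b). The 8 PPS libraries thus lay above the other 26 libraries of the study. The replicates of PPS-DE(b) lay above those of PPS-24h and PPS-PM, and the other pairs of PPS conditions overlapped. In PM medium JAG1 was high after every day 1 treatment, and the 6 PM libraries of DE(a), APS and MPS, at 65.4 to 86.8 CPM, exceeded both Control libraries, at 56.2 and 42.2 CPM.

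JAG2 (chromosome 14, 105140982 to 105168824, minus strand), the second Serrate-type ligand, stayed between 1.86 and 27.1 CPM. Its mean was highest in DE(a)-DE(b), 18.8 ± 11.6 CPM (SD, n = 2), and came from replicates of 10.6 and 27.1 CPM. The values were 3.58 and 5.63 CPM in PPS-DE(b), 1.86 and 2.57 CPM in MPS-LM, and 2.84 and 4.04 CPM in PPS-LM. Of 16 pairs of neighboring conditions, 15 overlapped. Exons of JAG1 and JAG2 overlap with those of long noncoding genes of the GENCODE v44 annotation that are not rows of the tables, on the opposite strand for JAG1 and on the same strand for JAG2. The strand setting of the quantification is not given in the sources used here.

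HES1 (chromosome 3, 194136148 to 194138732, plus strand), a repressor that also switches off its own gene, was higher after every PS treatment than in Control cells. Control had 7.77 and 7.23 CPM. At 24 h HES1 was at 42.3 and 43.7 CPM in DE(a), 21.8 and 29.3 CPM in APS, 27.3 and 26.3 CPM in MPS, and 31.6 and 35.1 CPM in PPS. One day later the media separated. In PM, DE(a) cells had 9.91 and 2.02 CPM, APS cells 5.14 and 1.49 CPM, MPS cells 4.79 and 1.45 CPM, and PPS cells 2.35 and 0.714 CPM. DE(b) libraries had 4.88 to 15.8 CPM, and LM libraries had 16.3 to 28.4 CPM with no overlap with those of DE(b) or PM. Replicate 1 was above replicate 2 in 4 of 4 conditions of PM and in 4 of 4 of DE(b).

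HEY1, on chromosome 8, encodes a repressor known from heart and vessel development. It was highest in PPS-LM, at 162 and 122 CPM, above all other libraries. The other LM libraries had 13.1 and 13.8 CPM after DE(a), 8.10 and 9.56 CPM after APS, and 9.84 and 21.7 CPM after MPS. In DE(b) medium it ranged from 0.174 to 1.97 CPM. In PM medium it ranged from 0 to 2.25 CPM except for DE(a)-PM replicate 1, at 10.03 CPM against 0.561 CPM in replicate 2. The PPS-PM library with no count allows up to 0.143 CPM, a limit of 3 counts that covers counting error only. Before day 2, PPS cells had 10.9 and 5.42 CPM at 24 h, and the other 24 h libraries had 0.412 to 2.56 CPM.

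HEY2 (chromosome 6, 125747664 to 125761269, plus strand), a repressor best known from the ventricular myocardium, was present in Control cells at 24.4 and 21.9 CPM. In DE(b) medium it was low after 3 of the 4 day 1 treatments, with 6.32 and 4.02 CPM after DE(a), 4.09 and 3.70 CPM after APS, and 5.20 and 3.29 CPM after MPS. PPS-DE(b) cells had 33.6 and 28.0 CPM, above Control and close to the 28.4 and 33.5 CPM of PPS cells at 24 h. The PM libraries ranged from 8.71 to 24.9 CPM and the LM libraries from 7.36 to 17.9 CPM.

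**Figure D2:**
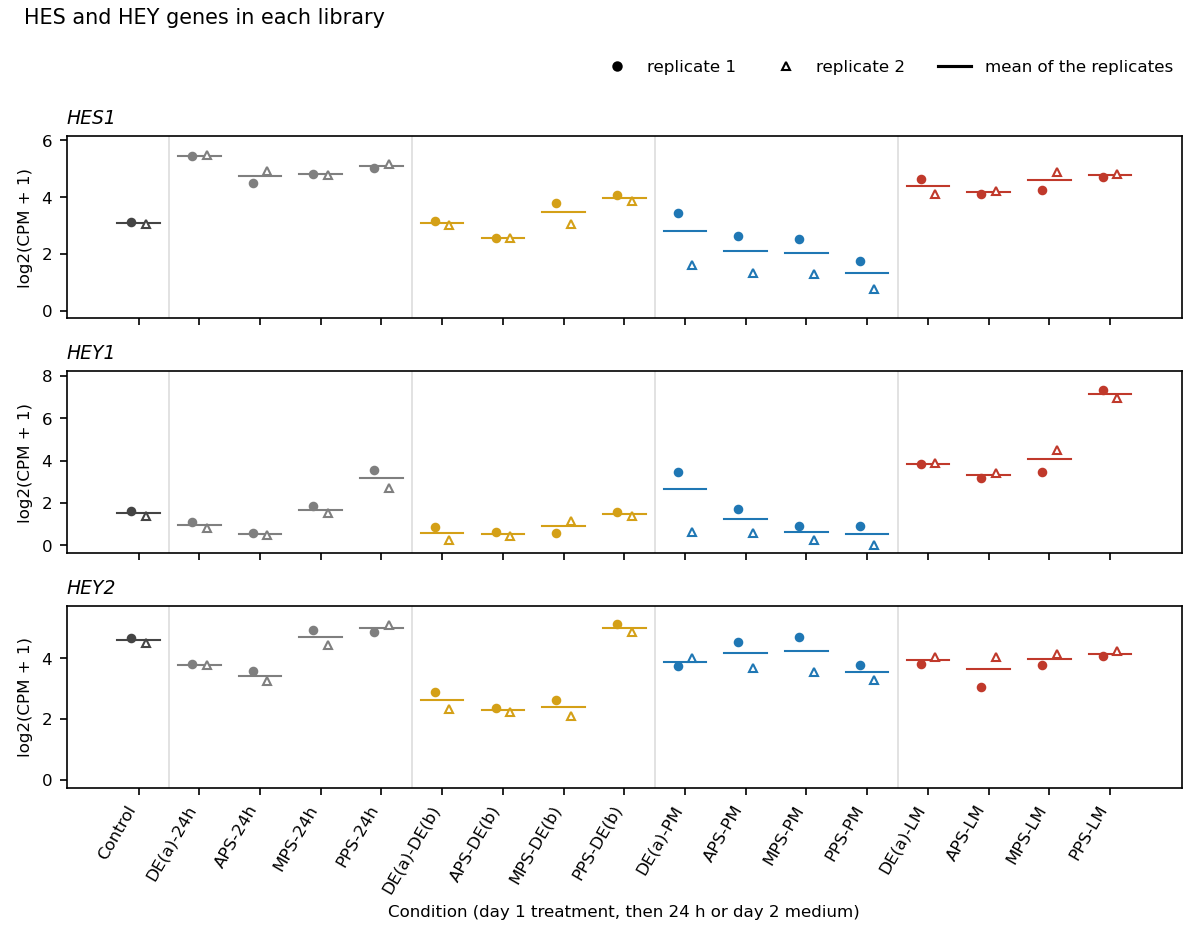
HES1, HEY1 and HEY2 as log2(CPM + 1) (vertical axis) in the 17 conditions (horizontal axis); filled circles are replicate 1, open triangles replicate 2 and lines the mean level, colored by day 2 medium. HES1 is high at 24 h and in LM, HEY1 peaks in PPS-LM (162 and 122 CPM), and HEY2 is low in DE(b) except after PPS.

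The comparison of day 2 media asked how the second treatment set these genes, taking the mean of the 4 conditions of a medium. Differences were tested with edgeR on all libraries, with Benjamini-Hochberg adjustment over 17888 genes, and calls are those with an adjusted p under 0.05. Log2 fold changes are given with the SE of this model. Between PM and LM, 5 of the 8 genes were called, against 42.0% of all genes. NOTCH1, JAG1 and JAG2 were higher in PM, and the targets HES1 and HEY1 were higher in LM. NOTCH1 was lower in LM by a log2 fold change of -2.59 ± 0.12 (adjusted p = 6.6e-14), JAG1 by -1.17 ± 0.08 (adjusted p = 6.6e-11) and JAG2 by -0.90 ± 0.25 (adjusted p = 0.0057). HES1 was higher in LM by 2.85 ± 0.30 (adjusted p = 5.2e-08) and HEY1 by 4.39 ± 0.48 (adjusted p = 1.1e-07). HES1 was thus lower in PM, the medium in which the receptor NOTCH1 and, as a mean over day 1 treatments, the ligand JAG1 were higher. After PPS, however, the JAG1 mean was 123 CPM in PM and 121 CPM in LM. All 17 calls of the 3 comparisons of media held in 34 fits that each left out 1 library.

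Between DE(b) and PM, 6 of the 8 genes were called, against 43.0% of all genes. NOTCH1 differed by -1.58 ± 0.11 in DE(b) relative to PM, JAG1 by -1.01 ± 0.08, HEY2 by -0.96 ± 0.19 and NOTCH2 by -0.31 ± 0.09, with adjusted p from 1.3e-10 to 0.0093 in edgeR. HES1 and NOTCH3 were higher in DE(b), by 1.52 ± 0.29 and 0.96 ± 0.14. The HEY1 value was -0.50 ± 0.56 (adjusted p = 0.52), and it turned positive without DE(a)-PM replicate 1 (0.30) or PPS-PM replicate 1 (1.01). Between DE(b) and LM, 6 of the 8 were called as well, against 39.7% of all genes. HEY1 was higher in LM by 4.89 ± 0.50, HES1 by 1.33 ± 0.28 and HEY2 by 1.00 ± 0.19, whereas JAG2 was lower by a log2 fold change of -1.33 ± 0.25, NOTCH1 by -1.01 ± 0.11 and NOTCH3 by -0.86 ± 0.14. The median absolute log2 fold change of the 8 genes was 0.96, 1.04 and 1.00 in the 3 comparisons, in the order DE(b) to PM, LM to PM and LM to DE(b), against 0.35, 0.34 and 0.33 over all genes tested. The 8 genes were chosen with earlier results of these data known, so this difference is a description and not a test. For JAG1, HEY1 and HEY2, each mean of a medium combines day 1 treatments with different levels. The 8 libraries of each medium did not overlap for NOTCH1 in any of the 3 comparisons, for HES1 in those with LM, for NOTCH2 between DE(b) and PM, and for HEY1 between LM and DE(b). This made 2 of 8 genes in the comparison of DE(b) with PM, 2 of 8 in that of LM with PM and 3 of 8 in that of LM with DE(b), against 13.3%, 13.2% and 9.26% of the 14641 genes that averaged 1 CPM or more.

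**Figure D3:**
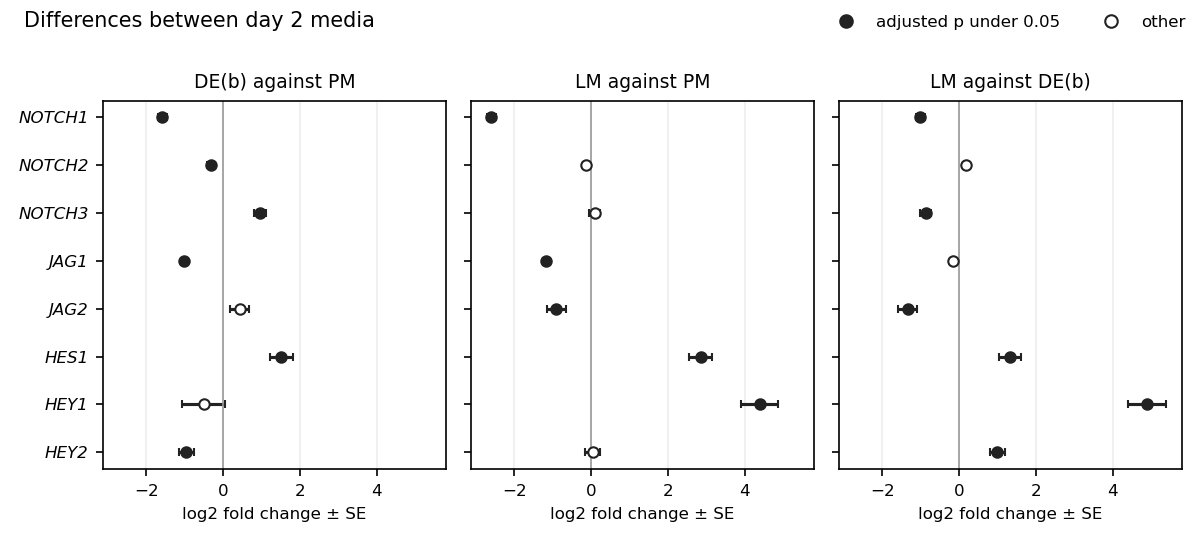
Log2 fold change (horizontal axis) of each of the 8 genes (vertical axis) between the means of day 2 media; bars are the SE, filled points have an edgeR adjusted p under 0.05 and open points do not. NOTCH1 is lower in LM than in PM by a log2 fold change of -2.59 while HES1 and HEY1 are higher by 2.85 and 4.39.

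Markers of other cell types moved with the medium. Of the endothelial and blood progenitor list of 7 genes, the summed level was 338 to 1584 CPM in LM, 96.8 to 222 CPM in PM and 65.4 to 120.5 CPM in DE(b). Most of the LM sum was KDR, at 288 to 1506 CPM, while CDH5 and TAL1 were under 1 CPM in all 8 LM libraries. The amnion list of 3 genes summed to 77.6 to 397 CPM in LM, 0.505 to 12.52 CPM in PM and 1.11 to 23.5 CPM in DE(b). Within LM, the amnion genes TFAP2A (113 and 167 CPM) and ISL1 (75.1 and 94.8 CPM), the latter also a gene of the lateral list, were highest in PPS-LM, where HEY1 was highest too, whereas GATA3 was at 107 and 136 CPM in PPS-LM and 129 and 140 CPM in DE(a)-LM. The part of these cell types in the HES1 and HEY1 differences was not tested.

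Differences between replicates 1 and 2 recurred across the conditions. Replicate 1 was lower in 14 of 16 treated conditions for JAG2 and for NOTCH2, and higher in 12 of 16 for HEY1. It was higher in 4 of 4 conditions for HES1 and HEY2 in DE(b), for HEY1 at 24 h, and for HES1 and HEY1 in PM, whereas in LM it was lower in 4 of 4 for HEY2. In PM medium, TBXT, a PS transcription factor, was below in replicate 1, with 180 and 380 CPM in DE(a)-PM and 133 and 336 CPM in APS-PM, and the repressor HES6 was at 63.3 and 189 CPM in DE(a)-PM. DE(a)-PM replicate 1 also held the endoderm markers SOX17 and FOXA2 at 72.7 and 33.0 CPM, against 3.75 and 3.37 CPM in replicate 2. Without this library the difference of HES1 was 1.91 between DE(b) and PM and 3.23 between LM and PM, and that of HEY1 was 5.19 between LM and PM, all of them called. All calls between media also held with the replicate number as a block and without each other library in turn. The part of the replicate differences in the results for PM medium was not tested further.

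At 24 h, before the media, 5 of the 8 genes differed among the 4 day 1 treatments (edgeR F test), against 18.8% of all genes. JAG1 had the smallest adjusted p (3.4e-09), followed by NOTCH3 (0.0019), NOTCH1 (0.0058), HEY2 (0.0075) and HEY1 (0.010), while HES1 (0.68), JAG2 (0.81) and NOTCH2 (0.91) were not called. Between neighboring treatments, 0 of 8 genes were called between APS and DE(a) with edgeR, 1 at an unadjusted p under 0.05 and 0 with DESeq2, against 0.738% of all genes. From APS to MPS, JAG1 rose by 0.92 ± 0.16 on the log2 scale (adjusted p = 0.0016) and HEY2 by 1.39 ± 0.38 (adjusted p = 0.048), which made 2 of 8, against 2.93%. From MPS to PPS, JAG1 rose again by 1.13 ± 0.16 (adjusted p = 0.00012) and NOTCH3 by 1.27 ± 0.29 (adjusted p = 0.0097), also 2 of 8, against 6.15%. The NOTCH3 call rested on PPS-24h replicate 2, without which the difference was 0.61 (edgeR adjusted p = 0.41) and the F test had an adjusted p of 0.26, and also on MPS-24h replicate 1 (0.21). The F test of HEY1 rested on PPS-24h replicate 1, without which its adjusted p was 0.11, and the HEY2 step from APS to MPS was lost without any of the 4 libraries compared (adjusted p from 0.068 to 0.39). In a fit of only the 8 libraries at 24 h, the F tests of NOTCH1 and NOTCH3 were not called, with adjusted p of 0.054 and 0.072.

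Relative to Control, the 8 genes in 16 conditions gave 50 calls of 128, against 34.6% of all genes in these comparisons, 18.4% higher and 16.2% lower. HES1 rose in 4 of 4 conditions at 24 h, by 1.85 ± 0.56 to 2.62 ± 0.57 on the log2 scale (edgeR adjusted p from 0.0018 to 0.017), whereas in DE(b) 0 of 4 conditions were called with edgeR, also at an unadjusted p under 0.05 and with DESeq2. In LM it was above Control in MPS-LM and PPS-LM, and in PM 1 of 4 conditions was called, PPS-PM, where it fell by 2.29 ± 0.61. NOTCH1 was higher than Control in 4 of 4 PM conditions, by 1.43 ± 0.23 to 1.96 ± 0.23, and lower in 4 of 4 LM conditions, by a log2 fold change of -0.62 ± 0.22 to -1.27 ± 0.23. NOTCH3 fell in 10 of 16 conditions and rose in 0, and HEY2 fell in 6 and rose in 0. HEY1 was above Control in 4 of 4 LM conditions, by 2.30 ± 0.87 in APS-LM to 6.33 ± 0.99 in PPS-LM. JAG1 was called in 13 of 16 conditions, higher in 7 and lower in 6, and the 7 were the 4 PPS and the other 3 PM conditions. NOTCH2 was called in 0 of 16 comparisons with edgeR and in 0 with DESeq2, and 1 had an unadjusted p under 0.05, with values from -0.20 to 0.43. Of the 50 calls, 26 held without each of the 4 libraries compared, among them 10 of 13 for JAG1, 6 of 8 for NOTCH1, 4 of 10 for NOTCH3, 3 of 6 for HEY2, 2 of 7 for HES1, 1 of 4 for HEY1 and 0 of 2 for JAG2. The number of calls was 32 without Control replicate 1 and 37 without Control replicate 2. The HES1 calls in APS-24h and MPS-24h had adjusted p of 0.096 and 0.069 without Control replicate 1 and 0.11 and 0.075 without Control replicate 2.

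The change from 24 h to 48 h was tested for each day 1 treatment, in 12 comparisons that gave 40 calls of 96, against 27.0% of all genes, 13.2% higher and 13.8% lower. HES1 fell in 7 of 12 and rose in 0. All 4 PM conditions were among these, and HES1 decreased by 2.97 ± 0.58 in DE(a) cells, 3.05 ± 0.59 in APS cells, 3.24 ± 0.60 in MPS cells and 4.47 ± 0.64 in PPS cells (edgeR adjusted p from 2.7e-05 to 0.00064). In DE(b) it decreased by 2.60 ± 0.57 after DE(a), 2.43 ± 0.57 after APS and 1.48 ± 0.55 after MPS, the last with an adjusted p of 0.049 that was 0.070 to 0.29 without any of the 4 libraries compared and 0.051 with the scaling of DESeq2 (RLE). In LM the values were -0.21 to -1.22, and 0 of 4 were called with edgeR or DESeq2, 1 having an unadjusted p under 0.05. HEY1 rose in 4 of 4 LM conditions, by 3.70 ± 0.94 in DE(a)-LM, 4.26 ± 1.02 in APS-LM, 2.83 ± 0.86 in MPS-LM and 4.16 ± 0.87 in PPS-LM, and fell in PPS-PM by 4.22 ± 1.01 (adjusted p = 0.0043). The calls in APS-LM and PPS-LM held without each of the libraries compared. That in DE(a)-LM had an adjusted p of 0.051 without DE(a)-24h replicate 2, that in MPS-LM had 0.12 without MPS-LM replicate 2, and that in PPS-PM had 0.063 without PPS-PM replicate 2, the library with no count.

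Among the receptors, NOTCH1 had 9 calls of 12 over day 2, 5 higher and 4 lower. In DE(b) it fell after DE(a) and rose after MPS. NOTCH1 fell in 3 of 4 LM conditions, and the APS-LM value was -0.92 to -0.52 without 1 of the libraries compared. In PM it rose in 4 of 4 conditions, by 0.85 ± 0.22 to 2.27 ± 0.23. The smallest of these, in DE(a)-PM, was 0.41 without DE(a)-PM replicate 2 (edgeR adjusted p = 0.28), and its adjusted p was 0.067 without DE(a)-24h replicate 2. NOTCH3 rose in DE(b) after DE(a), APS and MPS, by 1.31 ± 0.29, 1.72 ± 0.29 and 1.69 ± 0.29 (adjusted p from 0.00011 to 0.0018), and after PPS it had a value of -0.47 ± 0.29 (adjusted p = 0.27). NOTCH3 was also called lower in PPS-PM and PPS-LM and higher in APS-LM. JAG1 rose in PM after DE(a), APS and MPS, by 1.498 ± 0.16, 1.24 ± 0.16 and 0.55 ± 0.16, and was at -0.06 ± 0.16 after PPS. In LM, JAG1 fell after APS and MPS and rose after DE(a), and in DE(b) it fell after APS. HEY2 fell in DE(b) after DE(a), APS and MPS, by 1.39 ± 0.39, 1.36 ± 0.40 and 2.64 ± 0.40, and was at 0.04 ± 0.37 after PPS. The HEY2 call after DE(a) was lost without DE(a)-DE(b) replicate 2 (-1.10, edgeR adjusted p = 0.13), and that after APS without any library except APS-24h replicate 2. The JAG1 call after MPS in PM was lost without either MPS-24h library or MPS-PM replicate 2 (adjusted p from 0.070 to 0.093). Of the 40 calls, 21 held without each of the 4 libraries compared. The comparison of PPS-DE(b) with PPS-24h had 0 of 8 genes called with edgeR, 2 at an unadjusted p under 0.05 (HES1 and HEY1) and 0 with DESeq2, against 20.5% of all genes.

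**Figure D4:**
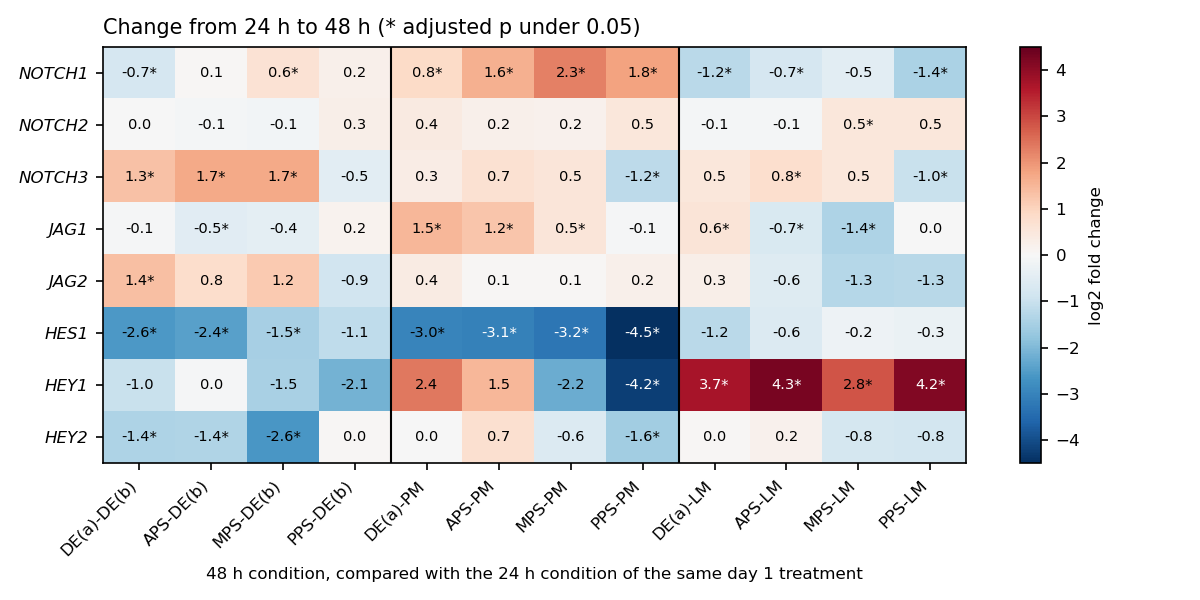
Log2 fold change from 24 h to 48 h of each gene (rows) in the 12 conditions at 48 h (columns), each compared with the 24 h condition of the same day 1 treatment; red is higher at 48 h, blue lower, and an asterisk marks an edgeR adjusted p under 0.05. HES1 is lower in all 4 PM columns and HEY1 higher in all 4 LM columns.

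Within a medium, the 4 day 1 treatments were compared to see what remained of the first day. In DE(b), 3 of 8 genes differed (edgeR F test), against 16.6% of all genes, namely JAG1 (adjusted p = 2.7e-10), HEY2 (2.5e-06) and JAG2 (0.045). In LM, JAG1 (2.0e-10), HEY1 (0.00068) and JAG2 (0.041) differed, against 19.6%, and in PM, JAG1 (0.0099) and HEY1 (0.039), against 7.47%. The HEY1 call in PM rested on DE(a)-PM replicate 1, without which its adjusted p was 0.73, and that of JAG1 in PM on PPS-PM replicate 1, without which it was 0.13. The HEY1 call was also lost without MPS-PM replicate 2 or PPS-PM replicate 2, both with 0.084. The JAG2 calls did not hold in 20 and 11 of 34 fits that each left out 1 library, in DE(b) and LM in this order. The 3 receptors and HES1 were called in 0 of the 3 media with edgeR, with 1 of 3 at an unadjusted p under 0.05 for each, and DESeq2 called NOTCH2 in LM.

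Against the standard protocol of each medium, PPS stood apart. JAG1 was higher in PPS-DE(b) than in DE(a)-DE(b) by 2.43 ± 0.17 (edgeR adjusted p = 3.6e-09), higher in PPS-LM than in MPS-LM by 2.51 ± 0.17 (adjusted p = 5.7e-09) and higher in PPS-PM than in APS-PM by 0.75 ± 0.16 (adjusted p = 0.0055). In PPS-DE(b), HEY2 was higher by 2.62 ± 0.40 (adjusted p = 6.7e-05) and JAG2 lower by a log2 fold change of -1.997 ± 0.51 (adjusted p = 0.0081), which made 3 of 8 genes called, against 17.4% of all genes. The JAG2 difference was -1.16 (adjusted p = 0.23) without DE(a)-DE(b) replicate 2 and lost its call without PPS-DE(b) replicate 1 (adjusted p = 0.12), and the JAG1 call in PPS-PM was lost without APS-PM replicate 2 (0.59, adjusted p = 0.097). In PPS-LM, HEY1 was higher than in MPS-LM by 3.13 ± 0.83 (adjusted p = 0.026), and leaving out any of the 4 libraries gave 2.64 to 3.87 with adjusted p from 0.073 to 0.26. The endoderm markers were also lower in PPS-DE(b), where SOX17 had 113 and 224 CPM against 330.4 and 440 CPM in DE(a)-DE(b), and FOXA2 2.17 and 11.0 CPM against 86.0 and 125 CPM. Their part in the JAG1, JAG2 and HEY2 differences was not tested. Counts in PPS-LM were 2 of 8, against 5.63%, and in PPS-PM 1 of 8, against 5.25%. Of the remaining comparisons, MPS-DE(b) had 1 of 8 called, against 5.60%, with JAG1 higher by 0.69 ± 0.16 (adjusted p = 0.011). DE(a)-LM had 2 of 8, against 14.4%, with JAG1 higher by 0.90 ± 0.16 and JAG2 by 1.91 ± 0.52. Of the 9 calls, 4 held without each of the 4 libraries compared, namely JAG1 in PPS-DE(b), PPS-LM and DE(a)-LM and HEY2 in PPS-DE(b). APS-DE(b) and MPS-PM had 0 of 8 called with edgeR, also at an unadjusted p under 0.05 and with DESeq2, against 0.470% and 0.447% of all genes. DE(a)-PM and APS-LM had 0 of 8 called, against 0.0559% and 3.80%, with 1 and 2 at an unadjusted p under 0.05 and 0 and 1 with DESeq2.

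The interaction of day 1 and day 2 treatment over the 12 conditions at 48 h asked whether the effect of day 1 differed between media. It was called for 3 of 8 genes, against 13.2% of all genes: JAG1 (edgeR adjusted p = 2.3e-06), HEY2 (0.00033) and HEY1 (0.011). The other adjusted p were 0.093 for NOTCH1, 0.16 for JAG2 and HES1, 0.28 for NOTCH2 and 0.94 for NOTCH3. The 3 calls held in 34 of 34 fits that each left out 1 library.

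The other genes of the pathway were described from a list of 62, of which 59 passed the filter on low counts, by role. The ligands DLL1 and DLL3, the fringe enzyme LFNG and the repressor HES7, which belong to the segmentation clock of paraxial mesoderm, were high in PM. DLL1 ranged from 136 to 313 CPM in PM, 0.345 to 18.5 CPM in DE(b) and 0.475 to 4.08 CPM in LM. HES7 ranged from 45.8 to 137 CPM in PM, 0 to 4.27 CPM in DE(b) and 0.0582 to 0.630 CPM in LM. DLL3, which inhibits receptors within its own cell, had 538 to 1123 CPM in PM, 4.66 to 382 CPM in DE(b) and 3.55 to 16.2 CPM in LM. LFNG, which modifies the sugars of Notch receptors, ranged from 93.0 to 174 CPM in PM and from 0.524 to 15.99 CPM in LM. In log2 fold changes of LM against PM these were -7.35 ± 0.26 for DLL1, -6.57 ± 0.21 for DLL3, -5.40 ± 0.20 for LFNG and -8.25 ± 0.26 for HES7 (edgeR adjusted p from 3.3e-16 to 2.1e-15).

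In the group of HES and HEY relatives and feedback targets, 6 of 7 tested genes were lower in LM than in PM and 0 higher, against 42.0% of all genes called in either direction, whereas HES1 and HEY1 were higher in LM. HES6, a HES relative that counters HES1, had a log2 fold change of -4.72 ± 0.28, HEYL -4.05 ± 0.26, NRARP, a feedback inhibitor of the Notch complex, -2.37 ± 0.23, and HES4 -1.10 ± 0.33. In PM, HEYL ranged from 10.5 to 85.9 CPM and NRARP from 7.57 to 29.8 CPM, while Control had more NRARP, at 31.5 and 44.1 CPM. MFNG ranged from 1.41 to 3.85 CPM in PM and from 0 to 0.637 CPM in LM, and NOTCH4 from 1.17 to 3.07 CPM in PM and from 0.764 to 1.75 CPM in LM. RFNG (0.03 ± 0.12) and the ubiquitin ligase DTX1 (0.36 ± 0.23) were not called between LM and PM. DLL4 and HES5 did not pass the filter, with at most 0.515 and 0.247 CPM in any library.

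**Figure D5:**
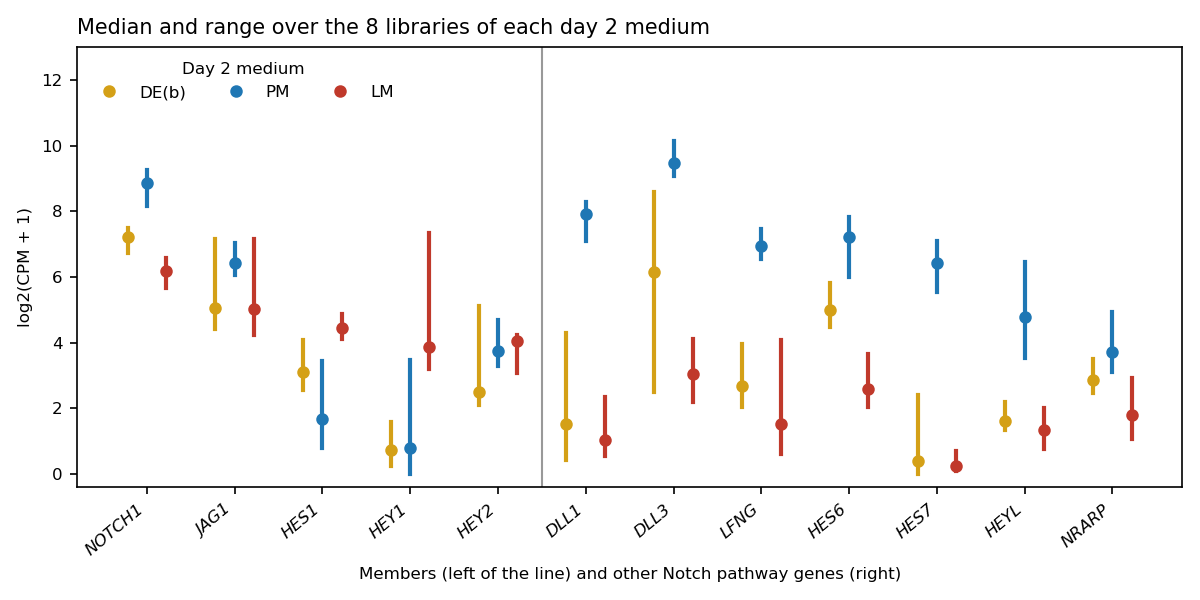
Median (points) and range (bars) of log2(CPM + 1) (vertical axis) over the 8 libraries of DE(b), PM and LM for 5 of the 8 genes and 7 other Notch pathway genes (horizontal axis). DLL1, DLL3, LFNG, HES7 and HEYL stand higher in PM than in either other medium, as NOTCH1 does, whereas HES1 and HEY1 have higher medians in LM.

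Counting all roles, 36 of 59 pathway genes were called between DE(b) and PM, 18 higher in DE(b) and 18 lower, against 43.0% of all genes. Between LM and PM 35 were called, against 42.0%, 18 higher in LM and 17 lower, and between LM and DE(b) 32, against 39.7%, 12 higher in LM and 20 lower. The median log2 fold change of the list was -0.05, 0.05 and -0.11 in these comparisons, against -0.01, 0.00 and 0.02 over all genes tested, and the median absolute value was 0.41, 0.36 and 0.35. The protease group, made up of ADAM proteases, gamma-secretase subunits and FURIN, had 8 of 9 genes called between DE(b) and PM. Of these, 7 were higher in DE(b), and the log2 fold changes of the group lay within -0.33 to 0.65. The ligand group, which includes DLL1, DLL3 and the noncanonical ligand DLK1, had 5 of 5 called between LM and PM, 3 of them higher in LM. Here DLK1, chosen after its values were seen, ranged from 1.71 to 29.7 CPM in LM and from 0.0476 to 0.725 CPM in PM.

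The genes whose condition means followed each gene most closely were ranked by Pearson's correlation of log2(CPM + 1) over the 17 condition means, among 12258 genes with at least 10 CPM in a condition. For NOTCH1 these were ICAM1 (0.94), CDC5L (0.93) and ST8SIA6 (0.93), and for NOTCH3 they were CARHSP1 (0.89), C1orf35 (0.88) and B4GALT4 (0.88). NOTCH2 had ANTXR1 (0.86), BAALC (0.85) and IGFBP5 (0.84). JAG1 was followed by SSX2IP (0.91), DCDC2 (0.86) and FAIM (0.85), and JAG2 by ZMYM4 (0.91), ARVCF (0.91) and INTU (0.90). The closest to HES1 were FAM43A (0.88), PTCHD1 (0.86) and RASGEF1B (0.86), to HEY1 C11orf96 (0.96), DMRTA2 (0.92) and EPAS1 (0.91), and to HEY2 CUL1 (0.83), FABP3 (0.83) and CACNG4 (0.82). Between the 8 genes themselves, HES1 and NOTCH1 had a correlation of -0.72 and HEY1 and NOTCH1 one of -0.59. Pairs of similar size were HEY2 and JAG2 (-0.60), HEY1 and JAG2 (-0.59), JAG1 and HEY2 (0.59), and NOTCH3 and JAG2 (0.57). By rank correlation HES1 and NOTCH1 had -0.55 and JAG1 and HEY2 had 0.64. These values are descriptions over means that share media and libraries.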

How the data were processed

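ESI017 cells were sequenced in 34 libraries of 17 conditions, with replicates 1 and 2 in separate tables. The authors prepared directional poly(A) libraries, quantified them with Salmon 1.10.2 against GRCh38 with sequence and GC bias correction, and summed transcripts to genes in R 4.4.2. The deposited values are estimated counts per gene, which are not normalized. The annotation version and the strand setting are not given in the sources used here, and multi-mapped reads are divided by estimate, which bears on NOTCH2 and its NOTCH2NL copies.

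The 8 genes, the pathway list of 62 genes and the marker lists were chosen with earlier results of these data known. Named genes were all members in all comparisons, members of the pathway list by role, and for each member the 3 genes most like it over condition means. Identifiers that share a symbol in a list were summed, leaving 37938 rows. Levels are CPM from the unrounded counts. Counts were rounded for edgeR 4.0.16 (R 4.3.3): filterByExpr by condition kept 17888 genes, scaling was TMM (factors 0.934 to 1.07), and quasi-likelihood F tests with 1 mean per condition over 34 libraries left 17 residual degrees of freedom, with Benjamini-Hochberg adjustment. All comparisons with Control share its 2 libraries, and all comparisons of a day 1 treatment over time share its 24 h libraries. A limit of 3 counts was used where a library had no count. The p-values set each difference against a spread between replicate cultures that was estimated over all 34 libraries, not from the conditions compared alone. The tests were tested on simulated counts with known changes.

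Alternatives were RLE scaling, no filter, only the libraries compared, the replicate number as a block, DESeq2 1.42.0, TMM-scaled CPM and each library left out in turn, with the dispersion trend kept from the complete fit and a lone library assumed to vary like the others. Positions are from GENCODE v44 and promoters from RefSeq, both GRCh38.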

Additional observations from a re-analysis of the deposited data

Results flagged for a closer look

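For JAG1, HEY2 and HEY1 the effect of the day 1 treatment differed between the day 2 media, by the interaction test of edgeR over the 12 conditions at 48 h. JAG1 had an adjusted p of 2.27e-06. The standard day 1 treatment is DE(a) in DE(b), MPS in LM and APS in PM, so the differences given here have different references. The JAG1 mean after PPS was higher than after this standard by 2.43 on the log2 scale in DE(b) and 2.51 in LM, against 0.75 in PM. After DE(a), the JAG1 mean was 26.3 CPM in DE(b), 42.7 CPM in LM and 80.1 CPM in PM. After PPS it was 138, 121 and 123 CPM in the same order. HEY2 had an adjusted p of 0.000334, and PPS differed from the standard treatment by 2.62 in DE(b), 0.17 in LM and -0.67 in PM, of which only the DE(b) value was called. HEY1 had an adjusted p of 0.0108, with a PPS difference of 3.13 in LM, 1.89 in DE(b) and -1.57 in PM, of which the LM value was called. The counts behind HEY1 in PM include 1 library at 0 and DE(a)-PM replicate 1 at 10.03 CPM, and without that library the call held, as it did without each of the other libraries.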

How the results depend on the processing

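Limits lie mainly in the 2 libraries per condition. All calls between media kept their direction and side of the threshold under RLE scaling, no filter, only the libraries compared, the replicate block, DESeq2 and 34 fits that each left out 1 library. The interaction was called for 3 genes, and for 6 without the filter, 6 with the replicate block and 5 with DESeq2. Within media, 8 calls became 14 without the filter, and the 5 calls at 24 h became 3 in a fit of only the 8 libraries. Fits of only the libraries compared lost 16 calls in total, including those at 24 h. Among the others were the edgeR F tests of JAG1 (adjusted p = 0.11) and HEY1 (0.60) in PM and of JAG2 (0.12) in DE(b). The difference of JAG1 between PPS-PM and APS-PM was also lost (edgeR adjusted p = 0.15). The replicate number was not used as pairing in the main fit. The labels place replicates 1 in a first deposited set and replicates 2 in a second set, named a repeat. They name no culture or batch shared by same-numbered samples. The difference of replicate 1 from replicate 2 was correlated between conditions, with values of -0.196 to 0.569 (median 0.161). The correlation was over 0.1 in 96 of 136 pairs of conditions, not in all. Any difference shared by a replicate set thus entered the spread of the main fit. In 17 of 17 conditions, however, the difference of replicate 1 from replicate 2 had a mean correlation over 0 with that of the other conditions. This is a hint from the data of a shared difference between the replicate sets. With the replicate block, calls between media were 18 (NOTCH2 between LM and DE(b) was added, adjusted p = 0.042), against Control 57 in place of 50, and from 24 h to 48 h 49 in place of 40. Leaving out 1 library at a time gave 32 to 55 calls against Control, 4 to 5 at 24 h, 35 to 42 from 24 h to 48 h, 17 to 18 between media, 6 to 10 within media, 3 to 5 for the interaction, 5 of them without DE(a)-PM replicate 2, and 95 to 103 of the pathway list, 103 in the complete fit. Directions reversed only for uncalled values of the comparisons of media, HEY1 between DE(b) and PM (range -0.88 to 1.01, with 0.30 and 1.01 without DE(a)-PM or PPS-PM replicate 1) and HEY2 between LM and PM (range -0.13 to 0.22, with -0.13 without APS-LM replicate 2, -0.08 without MPS-PM replicate 2, -0.06 without APS-PM replicate 2, -0.02 without PPS-PM replicate 2 or MPS-LM replicate 2, and -0.001 without DE(a)-LM replicate 2). The cause was not tested. TMM scaling moved 16 of 136 condition means by more than 1 SD. The gene most like a member was the same for 4 of 8 with a pseudocount of 0.1 and for 0 of 8 by rank correlation.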

Other observations

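The 4 genes of the segmentation clock named above were also measured at 24 h, before PM medium. DLL1 had 1.401 and 0.483 CPM in DE(a), 7.596 and 8.79 CPM in APS, 59.9 and 68.3 CPM in MPS, and 88.5 and 71.9 CPM in PPS, with no overlap between conditions. HES7 had 0 and 0.0537 CPM in DE(a), 0.142 and 0.320 CPM in APS, 2.97 and 2.40 CPM in MPS, and 17.5 and 15.0 CPM in PPS, where DE(a) and APS were near the limit of 3 counts and cannot be separated, and MPS and PPS did not overlap. DLL3 had 10.3 and 6.37 CPM in DE(a), 28.6 and 17.9 CPM in APS, 67.4 and 57.4 CPM in MPS, and 72.4 and 46.3 CPM in PPS, where MPS and PPS overlapped. LFNG had 6.79 and 3.81 CPM in DE(a), 6.69 and 4.44 CPM in APS, 15.3 and 12.1 CPM in MPS, and 27.7 and 16.1 CPM in PPS, against 21.2 and 15.6 CPM in Control. The primate-specific copy NOTCH2NLA had 6.46 to 10.2 CPM in PM and 2.61 to 5.46 CPM at 24 h.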
